A study of Mus musculus with 24 samples.

Results

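Gene reads from label-retaining cells (LRC) and non-label-retaining cells (nLRC) of mouse tail epidermis were compared at 2 months of age. The comparison took 6 of the 24 samples of the series, 3 titled LRC and 3 titled nLRC at 2 months, and treated the same-numbered samples as 3 pairs. The labels describe LRC as slow-cycling and nLRC as fast-cycling epidermal stem cells. All 6 samples came from C57BL/6J mice that carry both K5-tTA and pTRE H2B-GFP, were 2 months old, and had eaten doxycycline chow for 2 weeks, so the transgenes and the drug were shared by both groups. Cells were freed from tail skin with trypsin, stained, sorted by flow cytometry and lysed, and total RNA was sequenced with a stranded low-input kit. The other samples are hair follicle stem cells (HFSC) at the same age and all 3 populations at 1.5 and 2 years. The labels do not name the antibodies of the sort, and they do not say whether same-numbered samples came from the same mouse. P-values of the paired test measure how evenly the difference between LRC and nLRC recurred over the 3 assumed pairs. Those of the fit without pairs measure the spread between these samples. Either spread may be partly technical. Each sample was read over 49585 listed genes, and the 14104 that passed a filter on low counts over the 6 samples were tested.

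In this transgenic system a histone joined to green fluorescent protein is made under the keratin 5 promoter, which is active in basal keratinocytes and the outer layer of the hair follicle, until doxycycline turns the transgene off. The label is then diluted by each division, so cells that divide seldom stay green. The reporter thus ranks cells by past divisions during the chase, and only cells in which the keratin 5 promoter was active can carry it. Mouse tail epidermis is a mosaic of scales, which make hard hair-type keratins, and interscales, which cornify like back skin, with hair follicles set between them. Dlx1 and Slc1a3 have served as markers of slow-cycling and fast-cycling cells of this tissue.

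The 6 libraries held 10975551 to 14093720 gene reads, of which 47.1 to 58.3% lay in exons, and 7.80 to 11.6% came from mitochondrial genes. A single gene, Zc3h7a, held 8.23 to 13.9% of the gene reads, but 0.0425% of its reads were exonic, so its gene count does not give the level of its mRNA. Levels are given in CPM, read counts over library size after scaling by the trimmed mean of M values (TMM). A log2 difference is the fitted log2 fold change of LRC over nLRC, given with its standard error (SE). Keratin 5 and keratin 14, the defining keratins of basal keratinocytes, were among the 14 most abundant genes in each of the 6. LRC replicate 1 stood apart, since 6735 genes had gene reads but no recovered exon read there, against 2664 to 5306 in the other 5. Odorant and vomeronasal receptor genes, grouped after values were seen, summed to 272.7 raw CPM in that library and to 22.6 to 83.0 in the others. Same-numbered libraries also shared their sex-linked transcripts. Xist was at 1099 and 779 raw CPM in LRC and nLRC replicate 1 and under 0.1 in the other 4, while Ddx3y was at 46.6 to 59.9 raw CPM in replicates 2 and 3. Replicates 1 and 2 share a code in their file names and replicate 3 has another.

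At 2 months 3995 of 14104 genes (28.3%) differed between LRC and nLRC at an adjusted p under 0.05 in edgeR's quasi-likelihood test with the pair as a block. Of these, 2131 (15.1% of those tested) were higher and 1864 (13.2%) lower in LRC. These shares of all tested genes are the ones to set beside the counts of each gene list below. At least 2-fold changes were more often upward, with 970 genes higher and 282 lower. The excess was smaller on exon reads (547 and 279), with at least 10 reads in every library (548 and 204) and without the block (333 and 155). With no replicate block the count was 661 (4.69%), 420 higher and 241 lower, and 657 of the 3995 calls (16.4%) were among them. On reads over exons alone, 2780 of 11998 genes (23.2%) were called. Leaving out a pair gave 3270 called genes without replicate 1, 2456 without replicate 2 and 2621 without replicate 3. For strong genes the fit without replicate 1 gave far smaller adjusted p-values than the full fit. Dpysl3 had an edgeR adjusted p of 6.27e-76 there, against 1.48e-08 with all 6 libraries. Calls of that fit are to be read with this limit. In the full fit the median log2 fold change of all genes tested was -0.01.

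The 12 genes with the smallest p among those higher in LRC, at an average log2 CPM of at least 2 and with no overlap between the groups, were Dpysl3, Lrig1, Arhgap24, Pdzrn3, Adgrl3, Krt80, Barx2, Nebl, Col8a1, Atp6v1c2, Srgap1 and Tshz2. Their log2 fold changes ran from 2.40 to 4.09. Dpysl3 encodes a collapsin response mediator protein that binds the cytoskeleton. It stood at 111, 126 and 131 CPM in LRC and 14.6, 11.6 and 14.6 CPM in nLRC (log2 difference 3.18 ± 0.12 SE, edgeR adjusted p 1.48e-08), with little spread within either group. Lrig1 (chromosome 6, 94604529 to 94700158) encodes a membrane inhibitor of the epidermal growth factor receptor and marks stem cells of the upper follicle. It had 89.98, 124 and 129.7 CPM in LRC and 12.98, 17.2 and 14.6 CPM in nLRC (log2 difference 2.94 ± 0.12 SE, edgeR adjusted p 1.48e-08). The largest difference among the 12 was that of Adgrl3 (chromosome 5, 81020138 to 81825133), a latrophilin, which is an adhesion receptor of the G protein-coupled type. Adgrl3 had 210.4, 299 and 297 CPM in LRC and 15.8, 18.3 and 13.01 CPM in nLRC (log2 difference 4.09 ± 0.15 SE, edgeR adjusted p 1.72e-08). Only 15.4% of its gene reads were exonic, and on exon reads its log2 fold change was 3.55 (edgeR adjusted p 2.08e-12).

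Among the others of the 12, Arhgap24 (chromosome 5, 102481391 to 102897937) and Srgap1 (chromosome 10, 121780991 to 122047315) encode GTPase-activating proteins of small G protein switches. Arhgap24 had 63.9, 150.2 and 132 CPM in LRC and 8.85, 16.5 and 12.4 CPM in nLRC, and Srgap1 had 36.2, 30.03 and 23.8 CPM in LRC and 2.66, 2.93 and 2.32 CPM in nLRC. Pdzrn3 (chromosome 6, 101149609 to 101377897), a ubiquitin ligase with PDZ domains, had 81.0, 72.2 and 62.9 CPM in LRC and 6.00, 7.96 and 5.02 CPM in nLRC (log2 difference 3.51 ± 0.14 SE, edgeR adjusted p 1.48e-08). Nebl (chromosome 2, 17343909 to 17731464), which encodes the actin-binding protein nebulette, had 40.2, 44.4 and 30.4 CPM in LRC and 4.43, 4.19 and 3.44 CPM in nLRC. Few of the gene reads of these 4 genes were exonic (13.6% in Arhgap24, 20.7% in Srgap1, 24.6% in Pdzrn3 and 23.3% in Nebl), and each was also called on exon reads. Krt80 (chromosome 15, 101347444 to 101370162), an epithelial keratin, had 91.8, 106 and 109.8 CPM in LRC and 14.1, 21.1 and 18.2 CPM in nLRC (log2 difference 2.54 ± 0.11 SE, edgeR adjusted p 3.45e-08). Barx2 (chromosome 9, 31846044 to 31913462) and Tshz2 (chromosome 2, 169633013 to 170071816) encode transcription factors of the homeobox and zinc finger types. Barx2 had 132, 128 and 169 CPM in LRC and 22.2, 27.4 and 31.6 CPM in nLRC, the highest nLRC level among the 12. Tshz2 varied most within LRC, with 49.4, 57.8 and 19.3 CPM in LRC and 5.21, 7.04 and 2.97 CPM in nLRC. Col8a1 (chromosome 16, 57624258 to 57754737), a short-chain collagen, had 35.8, 58.1 and 63.6 CPM in LRC and 4.52, 9.38 and 9.11 CPM in nLRC, and Atp6v1c2 (chromosome 12, 17284721 to 17329359), a subunit of the proton pump of acidic compartments, had 46.6, 31.6 and 47.5 CPM in LRC and 4.33, 4.11 and 3.81 CPM in nLRC. For all 12 the lowest LRC library lay above the highest nLRC library, as the rule for naming them required.

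The 12 genes named by the same rule among those lower in LRC were Selenbp1, Mt4, Dlx3, Fras1, Tnc, Msx2, Id2, Slc39a10, Gja1, Hoxc13, Gpnmb and Mettl7a3, with log2 fold changes from -3.95 to -1.73. Selenbp1 (chromosome 3, 94933056 to 94944758) encodes a selenium-binding methanethiol oxidase. It had 11.9, 9.16 and 6.19 CPM in LRC and 116, 87.2 and 74.2 CPM in nLRC (log2 difference -3.37 ± 0.12 SE, edgeR adjusted p 1.48e-08). Fras1 (chromosome 5, 96373955 to 96784728), a basement membrane protein that anchors epidermis to dermis, had 31.8, 61.02 and 30.5 CPM in LRC and 244, 373 and 288 CPM in nLRC (log2 difference -2.93 ± 0.14 SE, edgeR adjusted p 4.09e-08). Tnc (chromosome 4, 63959785 to 64047015), the matrix protein tenascin C, had 17.9, 14.7 and 11.3 CPM in LRC and 93.8, 85.3 and 88.8 CPM in nLRC (log2 difference -2.63 ± 0.13 SE, edgeR adjusted p 6.01e-08). The nLRC libraries were close to one another for this gene. Gja1 (chromosome 10, 56377330 to 56402513), the gap junction protein connexin 43, was the most abundant of the 12, with 123, 97.2 and 98.5 CPM in LRC and 468, 382 and 498 CPM in nLRC (log2 difference -2.08 ± 0.12 SE, edgeR adjusted p 3.07e-07). Gpnmb (chromosome 6, 49036546 to 49070929), a membrane glycoprotein best known from pigment cells and macrophages, had 14.3, 13.5 and 10.1 CPM in LRC and 124, 102 and 137 CPM in nLRC. Dct, a pigment synthesis gene, was at 1.78, 0.637 and 1.47 CPM in LRC and 2.95, 1.76 and 2.79 CPM in nLRC, not called on gene reads but lower on exon reads (log2 fold change -1.88, edgeR adjusted p 0.0118). Mettl7a3 (chromosome 15, 100334929 to 100340375), a methyltransferase-like gene with close paralogs, had 33.4, 41.7 and 27.7 CPM in LRC and 136, 153 and 160.0 CPM in nLRC.

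**Figure D1:**
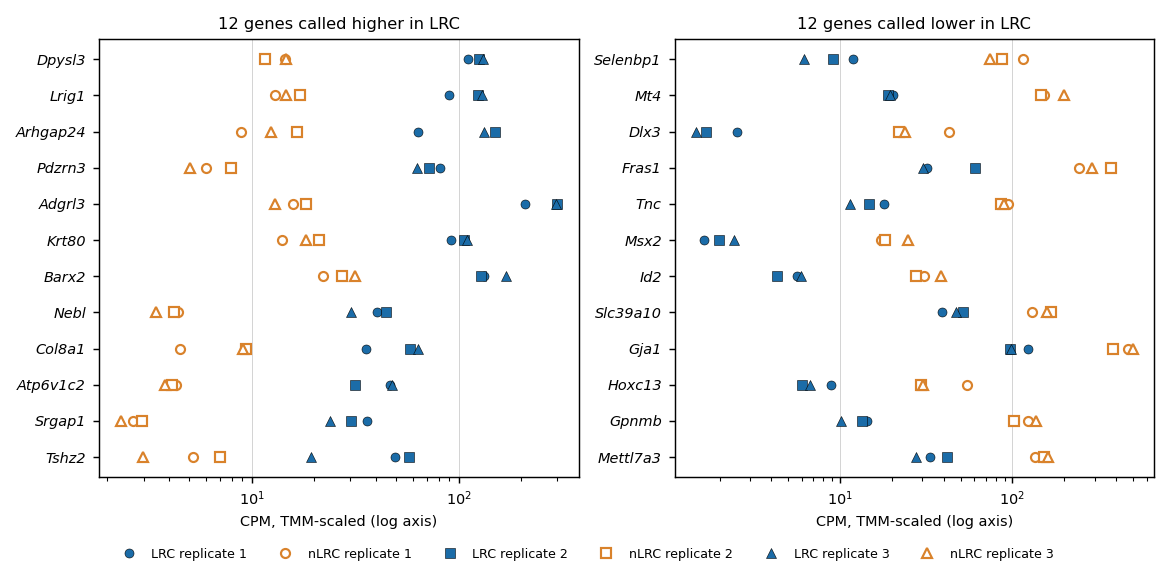
CPM (TMM-scaled, log axis) of the 24 named genes in each of the 6 libraries; filled blue symbols are LRC, open orange symbols nLRC, and the shape gives the replicate number. The groups are separate for each gene, as the rule required, and the gap is widest for Adgrl3, at 210.4 CPM or more in LRC and 18.3 CPM or less in nLRC.

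In the HFSC libraries of the same age, which were not part of the test, these genes followed no single order. Values here are CPM on a TMM scale over the 18 libraries at 2 months and 2 years. Pdzrn3 stood at 354, 521 and 322 CPM in the 3 HFSC libraries, above the LRC range of 62.4 to 77.3, and Lrig1 at 100.2, 99.7 and 145 CPM overlapped its LRC range of 85.9 to 129. Krt80 at 39.9, 39.5 and 43.7 CPM and Dpysl3 at 26.8, 26.8 and 20.6 CPM lay between the LRC and nLRC ranges. Of the genes lower in LRC, Gpnmb (2.08, 1.84 and 3.73 CPM), Mettl7a3 (2.26, 1.38 and 1.64 CPM) and Mt4 (1.42, 1.84 and 2.69 CPM) were lower still in HFSC. Tnc (184, 113 and 141 CPM) and Id2 (129, 86.7 and 115 CPM) were instead above every nLRC library.

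Listed genes of the hair follicle bulge were higher in LRC where they were called, but not all genes abundant in HFSC were. Of 20 listed genes of bulge stem cells, the stem cells of the resting follicle, 14 passed the filter, and 11 of these were higher and 0 lower, with a median log2 fold change of 1.65 against -0.01 for all genes. Sox9, a transcription factor of follicle stem cells, had 66.7, 86.4 and 128 CPM in LRC and 15.8, 15 and 18.7 CPM in nLRC (log2 difference 2.47 ± 0.14 SE, edgeR adjusted p 2.92e-07). Foxc1, which restrains bulge stem cell activity, had 8.23, 23.3 and 25.4 CPM in LRC and 2.26, 2.01 and 2.23 CPM in nLRC, and Nfatc1, another such factor, had 123, 106 and 114 CPM in LRC and 48.8, 41.1 and 37.7 CPM in nLRC. Postn, the matrix protein periostin, had 849.9, 318 and 370.1 CPM in LRC and 135, 24.1 and 23.6 CPM in nLRC (log2 difference 3.42 ± 0.31 SE, edgeR adjusted p 0.00229), with both groups highest in replicate 1. Krt15 had 957, 1623 and 2073 CPM in LRC and 272, 430.0 and 482 CPM in nLRC. Lhx2 was at the floor of 3 reads or fewer in every nLRC library and at least 8.14-fold higher in LRC. Cd34, the surface marker by which bulge cells are usually sorted, was at 0.89 CPM or less in all 6 libraries, did not pass the filter and stood at 197, 139 and 118 CPM in HFSC. Krt24 and Hopx were tested and not called (log2 fold changes 0.19 and -0.13). Of the 14, 7 were called higher with no replicate block, and on exon reads 10 of 13 were higher and 1, Hopx (log2 fold change -0.38), lower. Outside the list, the keratin genes Krt75 and Krt90 were lower in LRC (log2 fold changes -2.90 and -3.73). In HFSC, Krt75 stood at 120, 103 and 139.5 CPM and Krt90 at 204, 134 and 102 CPM.

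Genes of the upper follicle moved with them. All 10 listed genes of the junctional zone and infundibulum were tested, and 7 were higher and 0 lower (median log2 fold change 2.04). Besides Lrig1, these were Krt79, Cst6, Defb6, Gata6, Plet1 and Sostdc1. Krt79, a keratin of the infundibulum and sebaceous duct, had 161, 325 and 404 CPM in LRC and 40.03, 50.6 and 73.4 CPM in nLRC (log2 difference 2.39 ± 0.14 SE, edgeR adjusted p 2.98e-07). Gata6, a transcription factor of the same region, had 5.64, 7.97 and 7.27 CPM in LRC and 0.295, 0.754 and 0.186 CPM in nLRC (log2 difference 4.06 ± 0.40 SE, edgeR adjusted p 1.6e-05). Defb6, an antimicrobial peptide gene, had 19.4, 33.8 and 38.97 CPM in LRC and 4.13, 3.603 and 5.58 CPM in nLRC, and Cst6, a protease inhibitor gene, 32.9, 55.6 and 69.97 CPM in LRC and 9.34, 9.13 and 13.9 CPM in nLRC. The same 7 were called with no replicate block. Krt79 in HFSC was at 18.7, 10.6 and 25.1 CPM, below its nLRC range of 39.2 to 71.7. Lgr6 (log2 fold change -0.76) and Klk10 (-0.70) were not called, but Lgr6 was lower without replicate 3 (log2 fold change -1.25, edgeR adjusted p 0.000239). Sebaceous gland genes went the other way where they were called: 10 of 12 were tested, 4 were lower and 0 higher. Scd1, a lipid desaturase, had 70.2, 92.7 and 99.3 CPM in LRC and 232, 185 and 389 CPM in nLRC (log2 difference -1.57 ± 0.18 SE, edgeR adjusted p 0.000833), and Fasn, fatty acid synthase, had 118, 129 and 159.7 CPM in LRC and 161, 169 and 284 CPM in nLRC. Elovl3 and Cidea were also lower, with all nLRC libraries at 8.27 CPM or less for Elovl3 and 4.18 CPM or less for Cidea. Of these 4 genes Scd1 alone was called with no replicate block (edgeR adjusted p 0.0221). Fasn, Elovl3 and Cidea were not (edgeR adjusted p 0.193, 0.109 and 0.0886). Cidea also lost its call without replicate 2, without replicate 3 and with 9 libraries. The sorted cells are populations, and a larger share of cells of one kind cannot be told apart from more RNA of these genes per cell.

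Basal keratinocyte genes were lower in LRC where they differed. Of 15 tested, 6 were lower and 0 higher, with a median log2 fold change of -0.32. Krt14 had 5245, 5418 and 5408 CPM in LRC and 13340, 10890 and 16470 CPM in nLRC (log2 difference -1.32 ± 0.20 SE, edgeR adjusted p 0.000475), and Krt5 5777, 5282 and 5358 CPM in LRC and 12280, 9214 and 13610 CPM in nLRC (log2 difference -1.08 ± 0.19 SE, edgeR adjusted p 0.00152). For both keratins every nLRC library lay above every LRC library. Itgb4, Cd151 and Lamb3, which build hemidesmosomes and their matrix, had log2 fold changes of -0.51, -0.35 and -0.47. Trp63, the transcription factor that marks the epidermal lineage, did not differ detectably (log2 fold change -0.05, SE 0.13, edgeR adjusted p 0.791). Krt5 and Krt14 alone of the 6 were called with no replicate block, and on exon reads 3 of 14 tested genes were lower. Without replicate 1 or without replicate 3 the count was 3, and without replicate 2 it was 4.

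Interscale differentiation genes were mixed, with 3 of 19 higher, 3 lower and a median log2 fold change of -0.09, against 28.3% of all genes called. On exon reads 5 of 17 were higher and 1 lower, and with no replicate block 1 was higher and 0 lower. Krt1 and Krt10, the keratins of the first suprabasal layers, were both higher in LRC. Krt1 had 1753, 2451 and 2795 CPM in LRC and 687, 988 and 1126 CPM in nLRC (log2 difference 1.32 ± 0.14 SE, edgeR adjusted p 3.94e-05), and Krt10 2068, 2159 and 2079 CPM in LRC and 1546, 1497 and 1387 CPM in nLRC (log2 difference 0.51 ± 0.14 SE, edgeR adjusted p 0.0206). The call of Krt10 was lost without replicate 1 (edgeR adjusted p 0.173), without replicate 3 (0.08) and without the block (0.0895). Dsc1, a desmosomal cadherin, was higher by a log2 fold change of 0.44. Krtdap, Dsg1a and Grhl3 were lower, with -0.56, -0.38 and -0.38. All 3 lost their calls without the block, and Dsg1a and Grhl3 also on exon reads and on leaving out any pair. Genes of the last layers, Lor, Flg and Flg2, were low and uncalled, with no library above 15.2 CPM for Flg.

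Scale keratins were far lower in LRC. Only 3 of 8 listed hair-type keratins passed the filter, and 2 were called. Krt84 had 135, 36.7 and 39.9 CPM in LRC and 1038, 609 and 559 CPM in nLRC (log2 difference -3.59 ± 0.23 SE, edgeR adjusted p 4.9e-05). Krt36 had 62.7, 19.5 and 24.4 CPM in LRC and 376, 286 and 279.6 CPM in nLRC (log2 difference -3.31 ± 0.29 SE, edgeR adjusted p 0.00221), and it lost its call without replicate 3 (edgeR adjusted p 0.0829). For both genes LRC replicate 1 was the highest of the LRC libraries, and the groups did not overlap. Krt35 was at 3.53 CPM or less and not called. Over the whole keratin family, which was read after values were seen, 29 genes were tested, 10 were higher and 8 lower. The higher keratins were Krt1, Krt6a, Krt7, Krt10, Krt15, Krt26, Krt77, Krt78, Krt79 and Krt80, and the lower ones Krt5, Krt6b, Krt14, Krt16, Krt36, Krt75, Krt84 and Krt90. Krt6a and Krt16, which injured epidermis makes together with Krt6b and Krt17, parted ways. Krt6a had 142, 127 and 241 CPM in LRC and 102, 62.0 and 148 CPM in nLRC and Krt16 42.95, 18.3 and 41.6 CPM in LRC and 122, 54.3 and 109 CPM in nLRC (log2 difference -1.48 ± 0.10 SE, edgeR adjusted p 7.92e-07), while Krt6b had a log2 fold change of -0.56 and Krt17, not called, one of 0.77. Krt6a and Krt16 were both called on exon reads, but both lost their calls without the block (edgeR adjusted p 0.274 and 0.0864). The groups overlapped for Krt6a and not for Krt16. The call of Krt6b was lost on exon reads (edgeR adjusted p 0.169), without replicate 1 (0.0705), without replicate 3 (0.413) and without the block (0.495). Krt17 was called higher on exon reads (log2 fold change 0.96, edgeR adjusted p 0.0083) and without replicate 1 (log2 fold change 1.05). It was not called without replicate 2 (0.50, edgeR adjusted p 0.061) or without replicate 3 (0.79, edgeR adjusted p 0.338).

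**Figure D2:**
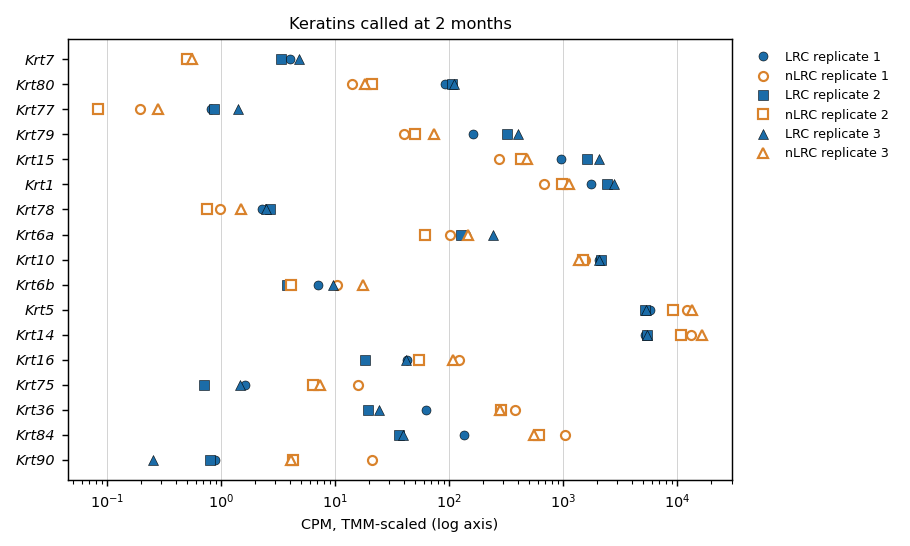
CPM (TMM-scaled, log axis) per library of the 17 keratins called at 2 months that had reads in all 6 libraries, ordered by log2 fold change; filled blue symbols are LRC and open orange symbols nLRC. Krt80 lies at 91.8 CPM or more in LRC and 21.1 CPM or less in nLRC, and the order is reversed for Krt84.

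Homeobox genes of the Dlx and Msx families, which pattern skin appendages and hair, were lower in LRC. Of 8 listed genes 6 passed the filter and all 6 were lower, with a median log2 fold change of -1.79. Dlx2, Dlx3 and Msx2 were the 3 called with no replicate block. Dlx3 (chromosome 11, 95120119 to 95125296), which is needed for hair shaft and tooth formation, had 2.52, 1.67 and 1.47 CPM in LRC and 42.7, 22.1 and 23.7 CPM in nLRC (log2 difference -3.95 ± 0.18 SE, edgeR adjusted p 3.45e-08). Msx2 (chromosome 13, 53466884 to 53473074), which acts in hair growth, had 1.63, 1.99 and 2.42 CPM in LRC and 17.2, 18.2 and 24.8 CPM in nLRC (log2 difference -3.31 ± 0.19 SE, edgeR adjusted p 1.88e-07). Dlx2 had 4.08, 2.95 and 2.62 CPM in LRC and 18.8, 10.1 and 9.48 CPM in nLRC and Dlx4 2.08, 0.876 and 0.765 CPM in LRC and 4.62, 3.85 and 2.51 CPM in nLRC. Dlx5 was lower by less, at 11.2, 11.7 and 12.6 CPM in LRC and 23.1, 17.9 and 18.1 CPM in nLRC. Hoxc13 (chromosome 15, 102921103 to 102928814), a regulator of hair and nail keratins, had 8.901, 6.05 and 6.697 CPM in LRC and 54.6, 29.6 and 30.2 CPM in nLRC (log2 difference -2.37 ± 0.14 SE, edgeR adjusted p 3.82e-07). Dlx1, a marker of slow-cycling cells in other work, was lower in LRC, at 3.12, 3.505 and 2.74 CPM in LRC and 8.06, 4.78 and 5.02 CPM in nLRC (log2 difference -0.90 ± 0.27 SE, edgeR adjusted p 0.028). That call was lost with no replicate block, with DESeq2, on exon reads, with all 24 or with 9 libraries in the fit, and without any 1 of the 3 pairs, and its level was under 10 CPM in all 6 libraries. Slc1a3, the glutamate transporter used to mark fast-cycling cells, was not called on gene reads (log2 difference -1.19 ± 0.85 SE, edgeR adjusted p 0.426) but was lower on exon reads (log2 fold change -1.45, edgeR adjusted p 0.0468). Without replicate 1 it was called lower (log2 fold change -2.07). It was not called without replicate 2 (-1.01, edgeR adjusted p 0.63) or without replicate 3 (-0.53, edgeR adjusted p 0.67). It was highest of the LRC libraries in replicate 1 (14.98, 6.53 and 2.49 CPM in LRC and 11.2, 18.4 and 17.4 CPM in nLRC). Iroquois homeobox genes, a family chosen after values were seen, went the opposite way, with 4 of 5 tested higher. Irx1 had 13.3, 39.5 and 55.8 CPM in LRC and 1.77, 3.69 and 5.02 CPM in nLRC and Irx2 29.8, 52.02 and 66.1 CPM in LRC and 4.72, 13.7 and 12.6 CPM in nLRC, and LRC replicate 1 was the lowest LRC library for both.

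The metallothionein genes were lower in LRC, a family noticed after values were seen. Metallothioneins are small cysteine-rich proteins that bind zinc and copper, and some of their genes are switched on by metal through metal response elements. All 3 tested were lower. Mt4 (chromosome 8, 94137197 to 94139031), the form made in stratified epithelia, had 20.3, 18.9 and 19.6 CPM in LRC and 152, 147 and 199 CPM in nLRC (log2 difference -3.07 ± 0.12 SE, edgeR adjusted p 1.48e-08). Mt1 had 31.5, 29.8 and 30.2 CPM in LRC and 86.8, 84.5 and 143 CPM in nLRC (log2 difference -1.74 ± 0.16 SE, edgeR adjusted p 7.67e-05) and Mt2 averaged 23.96 ± 3.51 CPM in LRC and 76.03 ± 25.3 CPM in nLRC (SD, n = 3), a lower level in LRC (log2 difference -1.63 ± 0.13 SE, edgeR adjusted p 2.87e-06). All 3 were called with no replicate block and on exon reads. In HFSC, Mt4 was at 1.42 to 2.69 CPM, while Mt1 was at 47.9, 58.96 and 80.9 CPM and Mt2 at 34.2, 32.9 and 54.2 CPM. The zinc importer Slc39a10 (chromosome 1, 46807544 to 46892852) had 39.2, 51.5 and 47.3 CPM in LRC and 130.4, 168 and 158 CPM in nLRC (log2 difference -1.73 ± 0.10 SE, edgeR adjusted p 2.33e-07), and its relative Slc39a6 had 88.5, 60.7 and 60.7 CPM in LRC and 226, 164 and 173 CPM in nLRC (log2 difference -1.43 ± 0.10 SE, edgeR adjusted p 1.04e-06). The zinc exporter Slc30a1, which cells also raise in response to zinc, had 32.1, 21.2 and 19.4 CPM in LRC and 63.6, 35.8 and 39.6 CPM in nLRC. The transporter families as a whole were mixed. Of 11 tested Slc39a importers 4 were lower and 2 higher. Of 7 tested Slc30a exporters 2 were lower and 0 higher, with a median log2 fold change of 0.06. Among all genes 28.3% were called.

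The promoters of the 3 metallothionein genes are shown because the genes moved together and share a known motif. Each line gives 300 bases, from 250 before to 50 after the RefSeq start on GRCm38.p6, plus strand, with matches to the metal response element core, TGCACNC or TGCGCNC on either strand, in capitals. They are Mt4 at chr8:94136954-94137253, Mt2 at chr8:94172368-94172667 and Mt1 at chr8:94178839-94179138.
Mt4: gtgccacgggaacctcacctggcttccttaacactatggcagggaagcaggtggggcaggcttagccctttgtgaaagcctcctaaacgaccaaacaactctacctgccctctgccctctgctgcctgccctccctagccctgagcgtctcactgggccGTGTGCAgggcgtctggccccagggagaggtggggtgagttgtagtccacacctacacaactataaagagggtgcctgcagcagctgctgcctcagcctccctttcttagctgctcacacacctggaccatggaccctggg
Mt2: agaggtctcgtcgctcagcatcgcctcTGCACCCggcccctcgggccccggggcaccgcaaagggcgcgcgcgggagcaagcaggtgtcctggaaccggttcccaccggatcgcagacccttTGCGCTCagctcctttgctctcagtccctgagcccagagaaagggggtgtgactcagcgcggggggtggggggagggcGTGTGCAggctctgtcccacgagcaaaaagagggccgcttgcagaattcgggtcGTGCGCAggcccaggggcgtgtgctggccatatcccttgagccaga
Mt1: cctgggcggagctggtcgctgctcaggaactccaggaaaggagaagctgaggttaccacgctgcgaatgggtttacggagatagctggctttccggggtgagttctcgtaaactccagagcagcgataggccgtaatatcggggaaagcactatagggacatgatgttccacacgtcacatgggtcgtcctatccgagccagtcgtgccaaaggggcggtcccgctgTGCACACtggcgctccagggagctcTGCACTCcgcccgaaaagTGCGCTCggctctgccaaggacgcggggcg
The core occurred 1 time in the window of Mt4, 4 times in that of Mt2 and 3 times in that of Mt1. At least 1 match was in 25.7% of all 32851 promoters of the table and at least 3 in 1.97%. Among the 12902 promoters of tested genes these shares were 35.5% and 3.28%. Mt4 had the largest difference of the 3 genes and the fewest matches. These are matches of letters, and binding there was not measured.

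Wnt signals drive hair growth and basal cell division in skin through secreted ligands, Frizzled receptors and beta-catenin. Of 17 listed ligands and R-spondins 10 were tested, 7 were lower in LRC and 2 higher. Wnt7a had 1.26, 2.39 and 1.59 CPM in LRC and 5.02, 7.12 and 6.504 CPM in nLRC (log2 difference -1.85 ± 0.29 SE, edgeR adjusted p 0.000635), and Wnt10b, at 3.84 CPM or less, had a log2 fold change of -2.20. Wnt3a had 15.7, 7.57 and 5.29 CPM in LRC and 25.7, 18.9 and 11.7 CPM in nLRC and Wnt4, the most abundant, 90.5, 90.7 and 87.9 CPM in LRC and 145, 143 and 153 CPM in nLRC (log2 difference -0.71 ± 0.10 SE, edgeR adjusted p 0.0003). With no replicate block 3 of the 7 lower calls were left, and without replicate 3 there were 4. Wnt3, Wnt6 and Wnt7b were lower as well, with log2 fold changes of -0.65, -1.30 and -0.50. Wnt16 was higher, at 11.4, 9.96 and 11.6 CPM in LRC and 1.48, 1.68 and 1.301 CPM in nLRC (log2 difference 2.87 ± 0.24 SE, edgeR adjusted p 4.46e-06). Wnt5b was higher on gene reads (log2 fold change 1.18), but 13.7% of its reads were exonic and it was not called on exon reads (edgeR adjusted p 0.0514). Among 14 tested receptors 2 were higher and 3 lower, against 28.3% of all genes called. Fzd7 had 42.4, 50.6 and 64.4 CPM in LRC and 12.7, 9.97 and 10.2 CPM in nLRC (log2 difference 2.25 ± 0.17 SE, edgeR adjusted p 5.8e-06) and Fzd3 7.71, 8.13 and 9.57 CPM in LRC and 2.75, 3.44 and 2.42 CPM in nLRC, whereas Fzd10 had 18.5, 21.2 and 24.4 CPM in LRC and 38.9, 39.7 and 49.99 CPM in nLRC (log2 difference -1.003 ± 0.11 SE, edgeR adjusted p 5.34e-05). Ror2, a receptor for noncanonical ligands, had 20.1, 10.5 and 5.102 CPM in LRC and 57.6, 66.2 and 57.3 CPM in nLRC with no overlap, but was not called (edgeR adjusted p 0.0584, against 0.0205 on exon reads and 0.0247 with no replicate block).

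Inhibitors of Wnt signalling were higher in LRC where they were called, 5 of 7 tested, with 0 lower. Apcdd1, a membrane inhibitor, had 32.9, 51.2 and 70.4 CPM in LRC and 6.098, 12.6 and 8.92 CPM in nLRC (log2 difference 2.47 ± 0.17 SE, edgeR adjusted p 4.77e-06). Dkk3 had 60.2, 36.6 and 32.1 CPM in LRC and 9.64, 13.7 and 10.8 CPM in nLRC and Sfrp1, a secreted decoy for Wnt proteins, had 17.6, 24.8 and 29.5 CPM in LRC and 9.64, 12.7 and 7.898 CPM in nLRC (log2 difference 1.24 ± 0.20 SE, edgeR adjusted p 0.00149). Rnf43 and Kremen1 were higher by 0.58 and 0.32. Both lost their calls without the block (edgeR adjusted p 0.114 and 0.363), and Kremen1 also with DESeq2 and on leaving out any pair. On exon reads the same counts were found, 5 of 7 higher and 0 lower, and with no replicate block 3 were higher and 0 lower. Of the effectors and targets, Ctnnb1, which encodes beta-catenin, did not differ detectably (log2 fold change 0.01, SE 0.11), nor did Axin2, the usual target readout (23.5, 27.6 and 28.8 CPM in LRC and 43.1, 25.6 and 23.9 CPM in nLRC). Tcf7l1, a repressor of Wnt targets, was higher (log2 difference 1.28 ± 0.17 SE, edgeR adjusted p 0.000514), with 19.2% of its reads in exons. Bambi, a decoy receptor for BMP and a Wnt target, had 0.371, 0.797 and 0.5102 CPM in LRC and 8.75, 5.53 and 7.71 CPM in nLRC (log2 difference -3.69 ± 0.38 SE, edgeR adjusted p 2.64e-05).

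**Figure D3:**
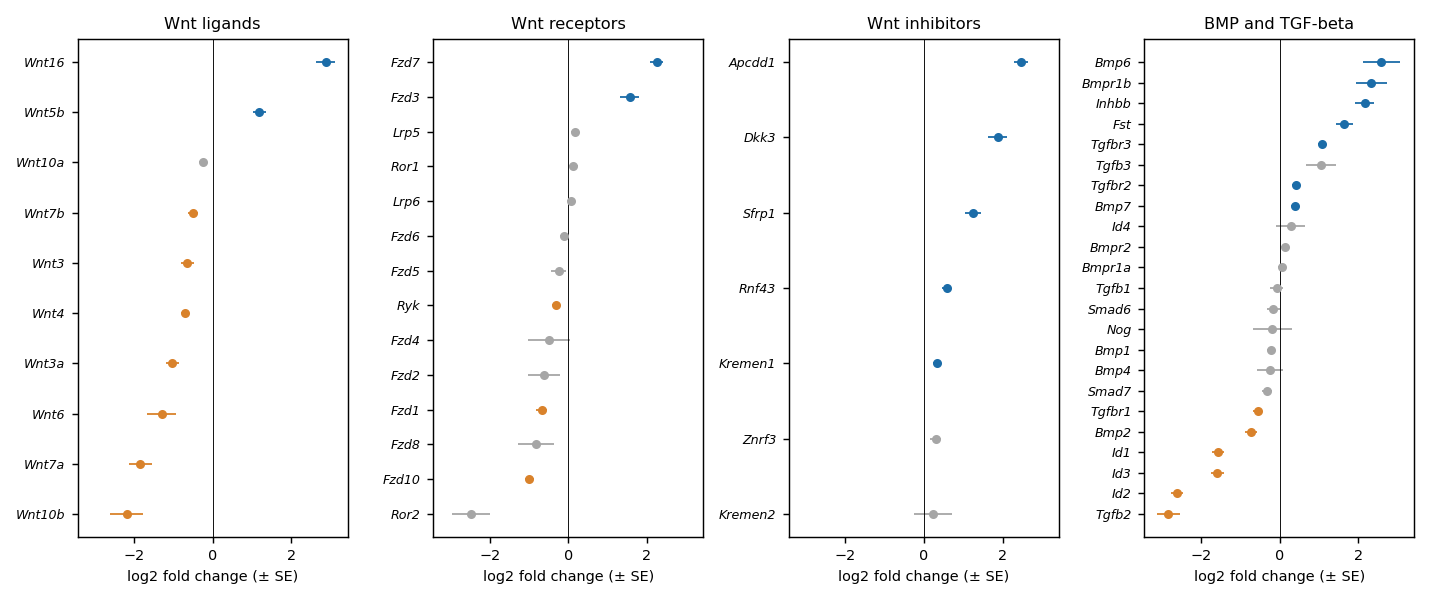
Log2 fold change (LRC over nLRC, 2 months) with its SE for the tested members of the Wnt ligand, Wnt receptor, Wnt inhibitor and BMP and TGF-beta lists; blue points were called higher in LRC, orange points lower, and grey points were not called. All 7 tested inhibitors lie right of 0, 8 of 10 ligands lie left of it, and Id1, Id2, Id3 and Tgfb2 lie left among the BMP and TGF-beta genes.

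Bone morphogenetic protein (BMP) signals hold follicle stem cells at rest and are blocked by secreted antagonists. The list read here also holds genes of transforming growth factor beta (TGF-beta) signalling. Of 23 tested genes 7 were higher and 6 lower, against 28.3% of all genes called. The Id genes are direct BMP targets that block differentiation factors. Id2 (chromosome 12, 25093799 to 25097140) had 5.64, 4.302 and 5.93 CPM in LRC and 30.8, 27.6 and 38.6 CPM in nLRC (log2 difference -2.61 ± 0.15 SE, edgeR adjusted p 2.27e-07), Id1 had 10.5, 8.21 and 6.51 CPM in LRC and 34.5, 18.7 and 22.3 CPM in nLRC (log2 difference -1.57 ± 0.16 SE, edgeR adjusted p 2.54e-05) and Id3 16.02, 6.85 and 11.9 CPM in LRC and 34.8, 26.5 and 39.6 CPM in nLRC (log2 difference -1.58 ± 0.16 SE, edgeR adjusted p 3.72e-05), while Id4 was not called (0.28). Among ligands, Tgfb2 had 3.04, 1.51 and 0.893 CPM in LRC and 11.9, 15.1 and 10.1 CPM in nLRC (log2 difference -2.83 ± 0.30 SE, edgeR adjusted p 7.3e-05) and Bmp2 10.1, 9.002 and 8.87 CPM in LRC and 16.03, 16.2 and 13.9 CPM in nLRC. Inhbb, an activin subunit, was higher at 12.2, 9.40 and 15.3 CPM in LRC and 4.03, 2.01 and 2.23 CPM in nLRC (log2 difference 2.17 ± 0.24 SE, edgeR adjusted p 5.68e-05), and so was its antagonist Fst, follistatin, at 9.05, 10.4 and 12.9 CPM in LRC and 2.26, 3.35 and 4.92 CPM in nLRC (log2 difference 1.65 ± 0.21 SE, edgeR adjusted p 0.000151). Bmp6 and the receptor gene Bmpr1b were called higher too, but 9.64% and 6.24% of their reads were exonic, and neither passed the filter on exon reads. Bmp6 was at 10.1, 2.31 and 0.765 CPM in LRC and 1.28, 0.251 and 0.372 CPM in nLRC, highest in LRC replicate 1. Tgfbr3, a coreceptor, had 97.2, 96.5 and 94.3 CPM in LRC and 43.97, 49.9 and 42.6 CPM in nLRC (log2 difference 1.08 ± 0.10 SE, edgeR adjusted p 1.15e-05), and Tgfbr1 was lower (log2 fold change -0.56).

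In the Notch list 4 of 10 tested genes were called, against 28.3% of all genes. Jag1, a ligand, was higher (log2 fold change 0.59), and Notch1, Dll1 and Rfng were lower (-0.50, -0.40 and -0.38). The target Hes1 was not called (-0.26), and with no replicate block 0 genes of the list were. In the Hedgehog list 3 of 9 tested genes were higher and 3 lower, also against 28.3% of all genes. Hhip, which binds and removes Hedgehog ligands, had 4.38, 1.27 and 0.447 CPM in LRC and 38.95, 25.7 and 24.2 CPM in nLRC (log2 difference -4.05 ± 0.46 SE, edgeR adjusted p 0.00569). Gas1, a Hedgehog coreceptor, had 33.1, 50.8 and 49.6 CPM in LRC and 65.4, 63.5 and 85.9 CPM in nLRC. Smo, the signal transducer, was lower (log2 fold change -0.28), but its call was lost with DESeq2, on leaving out any pair and without the block. Gli2, Gli3 and Boc were higher on gene reads only (0.49, 0.48 and 0.48 on the log2 scale), with 0 genes of the list higher on exon reads. The ligand genes Shh, Ihh and Dhh had 4 reads or fewer in every library.

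Epidermal growth factor receptor genes were called in both directions, with 3 of 12 higher and 2 lower, against 28.3% of all genes called. Without the block 1 was higher and 0 lower. Egfr itself had 408, 377 and 334 CPM in LRC and 351, 391 and 279 CPM in nLRC and was not called. Lrig1 was described above, and Erbb3, a partner receptor, was higher by 0.41. Erbb4 was called higher, but it stood at 13.1, 3.66 and 0.5102 CPM in LRC and 2.66, 0.503 and 0.743 CPM in nLRC, and 1.103% of its reads were exonic. The ligand genes Nrg2 and Epgn were lower, Nrg2 at 10.8, 7.01 and 6.89 CPM in LRC and 34.5, 15.7 and 14.6 CPM in nLRC and Epgn at 3.04, 2.39 and 2.36 CPM in LRC and 4.82, 6.03 and 9.66 CPM in nLRC. Genes of the insulin-like growth factor axis were called in both directions. Pappa, a protease that frees the growth factor from its binding proteins, had 70.7, 96.2 and 69.2 CPM in LRC and 6.98, 5.28 and 3.62 CPM in nLRC (log2 difference 3.90 ± 0.18 SE, edgeR adjusted p 2.55e-07). Igfbp5, one of those binding proteins, had 0.668, 0.319 and 0.128 CPM in LRC and 10.5, 4.69 and 6.23 CPM in nLRC (log2 difference -4.30 ± 0.40 SE, edgeR adjusted p 1.14e-05), and Stc1, an inhibitor of the protease, had 1.85, 0.558 and 0.128 CPM in LRC and 6.79, 3.44 and 4.74 CPM in nLRC (log2 difference -2.81 ± 0.51 SE, edgeR adjusted p 0.00282). Irs1, the adaptor of the receptor, had 6.01, 16.9 and 7.53 CPM in LRC and 52.2, 73.7 and 71.5 CPM in nLRC (log2 difference -2.79 ± 0.24 SE, edgeR adjusted p 0.000581), whereas Igf1r, Insr and Irs2 were higher by 0.62, 0.47 and 0.64. In all, 4 of 14 tested genes were higher and 4 lower, again against 28.3% of all genes called. Igfbp2 was the fourth lower gene (-1.17). With no replicate block 1 gene of this list, Pappa, was higher and 2, Igfbp5 and Irs1, were lower. Igf1r, Insr, Irs2, Stc1 and Igfbp2 lost their calls there (edgeR adjusted p 0.118 to 0.318). Irs2 lost its call also with DESeq2, with 9 libraries, without replicate 2 and without replicate 3.

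Proliferation genes were higher in the population labelled slow-cycling. All 30 listed genes were tested and had positive log2 fold changes, 17 were called higher and 0 lower, and the median was 0.52. Top2a, which untangles replicated DNA, had 129.7, 197 and 333 CPM in LRC and 78.4, 91.7 and 93.4 CPM in nLRC (log2 difference 1.22 ± 0.22 SE, edgeR adjusted p 0.0103). Cdk1, the mitotic kinase, had 17.6, 27.7 and 44.3 CPM in LRC and 10.5, 13.3 and 13.4 CPM in nLRC (log2 difference 1.19 ± 0.18 SE, edgeR adjusted p 0.000876), and Ube2c, a ubiquitin enzyme of mitotic exit, had 9.49, 14.98 and 26.02 CPM in LRC and 4.92, 7.04 and 5.39 CPM in nLRC (log2 difference 1.46 ± 0.25 SE, edgeR adjusted p 0.0033). Mki67 had 366, 524 and 709.8 CPM in LRC and 372, 371 and 390.4 CPM in nLRC and missed the threshold (edgeR adjusted p 0.0592). Replication genes had log2 fold changes of 0.06 for Mcm6, 0.16 for Pcna and 0.43 for Mcm2, of which Mcm2 alone was called. The call depended on the fit: 26 of 30 were higher on exon reads, 22 without replicate 1, 8 without replicate 2, 9 without replicate 3, and 1 with no replicate block. LRC replicate 3 was the highest of the 6 for Top2a, Cdk1, Ube2c and Mki67. Of 16 tested genes that restrain the cell cycle, 6 were higher and 2 lower, against 28.3% of all genes called. Cdkn2c and Cdkn2d, inhibitors of the kinases that start the cycle, were higher by 0.82 and 0.86, and Cdkn1a and Cdkn1b were not called (0.17 and 0.09). None of the 16 (0) was called with no replicate block, and without replicate 3 only 1 was. Gas1 and Btg1 were lower (log2 fold changes -0.70 and -0.40).

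Basement membrane genes were lower in LRC more often than higher, with 9 of 22 tested lower and 3 higher. Among all genes 13.2% were lower and 15.1% higher. Fras1 and Frem2 were the 2 lower with no replicate block, beside 1 higher. The imbalance was lost without replicate 3, with 4 higher and 4 lower, while without replicate 1 there were 1 higher and 5 lower and without replicate 2 there were 2 higher and 5 lower. Fras1 was described above. Its partner Frem2 had 68.3, 64.9 and 59.5 CPM in LRC and 102, 83.2 and 108 CPM in nLRC (log2 difference -0.60 ± 0.11 SE, edgeR adjusted p 0.00223), Lamb1, a laminin chain, had 33.01, 22.5 and 10.3 CPM in LRC and 87.3, 48.4 and 50.1 CPM in nLRC (log2 difference -1.57 ± 0.23 SE, edgeR adjusted p 0.00578), and Npnt, nephronectin, which anchors the hair muscle, had 23.1, 18.6 and 13.9 CPM in LRC and 60.7, 33.7 and 25.6 CPM in nLRC (log2 difference -1.05 ± 0.14 SE, edgeR adjusted p 0.000165). Col4a6 was higher, at 139.8, 155 and 115 CPM in LRC and 68.8, 97.7 and 73.6 CPM in nLRC. The 2 others called higher, Lama2 and Col4a2, had 4.29% and 31.8% of reads in exons and their highest value in LRC replicate 1. Of the fibulins, which link matrix fibres, Fbln1 was higher at 22.1, 28.8 and 38.4 CPM in LRC and 5.71, 7.21 and 12.5 CPM in nLRC (log2 difference 1.84 ± 0.15 SE, edgeR adjusted p 2.97e-06) and Efemp1 (fibulin 3) lower at 14.5, 16.7 and 7.84 CPM in LRC and 52.1, 47.3 and 37.2 CPM in nLRC (log2 difference -1.85 ± 0.15 SE, edgeR adjusted p 2.97e-06). Hmcn1, hemicentin 1, had 10.8, 3.505 and 1.403 CPM in LRC and 0.492, 0.419 and 0.0929 CPM in nLRC, highest in LRC replicate 1, and Fbln7 was not called (log2 difference 0.94 ± 0.34 SE, edgeR adjusted p 0.0528).

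Latrophilins bind teneurins, FLRT proteins and UNC5 receptors across cell contacts. Of 12 tested genes of this group 9 were higher and 1 lower, with a median log2 fold change of 1.62. Beside Adgrl3, Adgrl2 had 158, 275 and 364 CPM in LRC and 20.2, 33.1 and 26.8 CPM in nLRC (log2 difference 3.27 ± 0.16 SE, edgeR adjusted p 6.08e-07) and Adgrl1 45.3, 47.96 and 49.6 CPM in LRC and 32.6, 31.7 and 24.4 CPM in nLRC. Flrt2 had 4.67, 8.37 and 12.8 CPM in LRC and 0.787, 1.09 and 2.23 CPM in nLRC (log2 difference 2.66 ± 0.27 SE, edgeR adjusted p 2.11e-05) and Flrt3 42.1, 42.1 and 43.7 CPM in LRC and 15.5, 27.6 and 30.6 CPM in nLRC, while Unc5b was the lower gene, at 49.8, 46.5 and 44.5 CPM in LRC and 78.5, 78.3 and 78.05 CPM in nLRC (log2 difference -0.74 ± 0.10 SE, edgeR adjusted p 0.000214). Tenm1, Tenm3 and Unc5d were also called higher, but 0%, 3.64% and 0% of their reads were exonic, and LRC replicate 1 held 11.4, 14.8 and 11.1 CPM of them against 3.51 CPM or less in every other library. On exon reads 9 genes of the group were tested, and 6 were higher and 1 lower. With no replicate block 4 of 12 were higher and 1 lower, and Flrt3 was not called (edgeR adjusted p 0.103). Without replicate 1, 9 were tested, with 5 higher and 1 lower. Connexins were grouped after values were seen. Of 7 tested 4 were lower and 1 higher, against 28.3% of all genes called, and on exon reads 4 were lower and 2 higher. Gja1 was described above, Gjb2 had 6.75, 1.43 and 2.42 CPM in LRC and 30.3, 10.3 and 15.5 CPM in nLRC (log2 difference -2.49 ± 0.19 SE, edgeR adjusted p 2.21e-06), and Gjb6 6.305, 7.65 and 5.42 CPM in LRC and 26.6, 18.6 and 25.1 CPM in nLRC (log2 difference -1.85 ± 0.19 SE, edgeR adjusted p 3.57e-05). Gja3 had 0.668, 0.239 and 0.0638 CPM in LRC and 6.29, 5.95 and 4.55 CPM in nLRC.

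Immediate early genes, which respond within minutes to handling and growth signals, were higher in LRC more often than lower, 11 of 21 against 1. Fos had 41.8, 8.52 and 23.7 CPM in LRC and 32.9, 4.69 and 16.8 CPM in nLRC and Atf3 85.8, 10.4 and 24.6 CPM in LRC and 38.5, 5.36 and 16.4 CPM in nLRC, and in both groups replicate 1 was highest and replicate 2 lowest. Egr2 was different, with LRC replicate 1 lowest of the LRC libraries (15.6, 38.0 and 61.7 CPM in LRC and 4.23, 4.53 and 6.13 CPM in nLRC) and no overlap (log2 difference 2.83 ± 0.27 SE, edgeR adjusted p 0.000369). Egr2 was the 1 of 21 called with no replicate block. Of 7 tested interferon response genes 0 were called by edgeR with the block, with no block or on exon reads, and 1, Ifih1, had an unadjusted p under 0.05 with the block (log2 fold change 0.85, edgeR adjusted p 0.0542).

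Most defining markers of other cell types were low or at 0 reads, and their sums are given for the whole lists. The 10 Langerhans and myeloid markers summed to 0.838 to 6.68 CPM per library, and 0 passed the filter, as did 0 of 8 skeletal muscle markers. Fibroblast markers summed to 1.98 to 11.1 CPM in LRC and 5.11 to 9.64 CPM in nLRC, where Dcn had 1.04, 0.876 and 0.128 CPM in LRC and 7.08, 3.27 and 1.95 CPM in nLRC (log2 difference -2.64 ± 0.45 SE, edgeR adjusted p 0.00121), while Col1a1 and Col1a2 were at 0.668 CPM or less in every library. Of 10 epidermal T cell markers, Thy1 was lower in LRC at 25.5, 32.98 and 24.8 CPM in LRC and 50.6, 53.5 and 68.7 CPM in nLRC (log2 difference -1.05 ± 0.14 SE, edgeR adjusted p 0.000369), whereas Cd3e was at 0.223 CPM or less, and Nkg7, Gzmb and Xcl1 had 0 reads. Melanocyte markers summed to 37.6 to 43.01 CPM in LRC and 35.1 to 53.2 CPM in nLRC, mostly Mitf, with 0 of 3 tested called on gene reads. On exon reads 2 of 3 were lower, Dct and Mitf (log2 fold change of Mitf -0.79, edgeR adjusted p 0.0331). Pecam1, of the endothelial list, was lower (log2 fold change -0.45), but 0.953% of its reads were exonic and Cldn5 had 0 reads. Of the Merkel cell list only Piezo2 passed the filter. It was called higher, at 9.64, 1.91 and 0.829 CPM in LRC and 1.57, 0.251 and 0.557 CPM in nLRC (log2 difference 2.14 ± 0.49 SE, edgeR adjusted p 0.0069), with 3.65% of its reads in exons and its highest value in LRC replicate 1, and the call was lost without replicate 1 (edgeR adjusted p 0.0636). Krt20 was at 0.159 CPM or less. Schwann cell markers summed to 43.1 to 76.04 CPM in LRC and 33.4 to 57.8 CPM in nLRC, highest in LRC replicate 1, with 0 of 2 tested called. Of 3 tested erythroid markers Alas2 was higher, at 0.742, 3.903 and 0.957 CPM in LRC and 0.393, 1.005 and 0.186 CPM in nLRC, and the call was lost with DESeq2, with 9 libraries, without replicate 2, without replicate 3 and without the block (edgeR adjusted p 0.248 without the block). The part of these cells in the results was not tested.

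**Figure D4:**
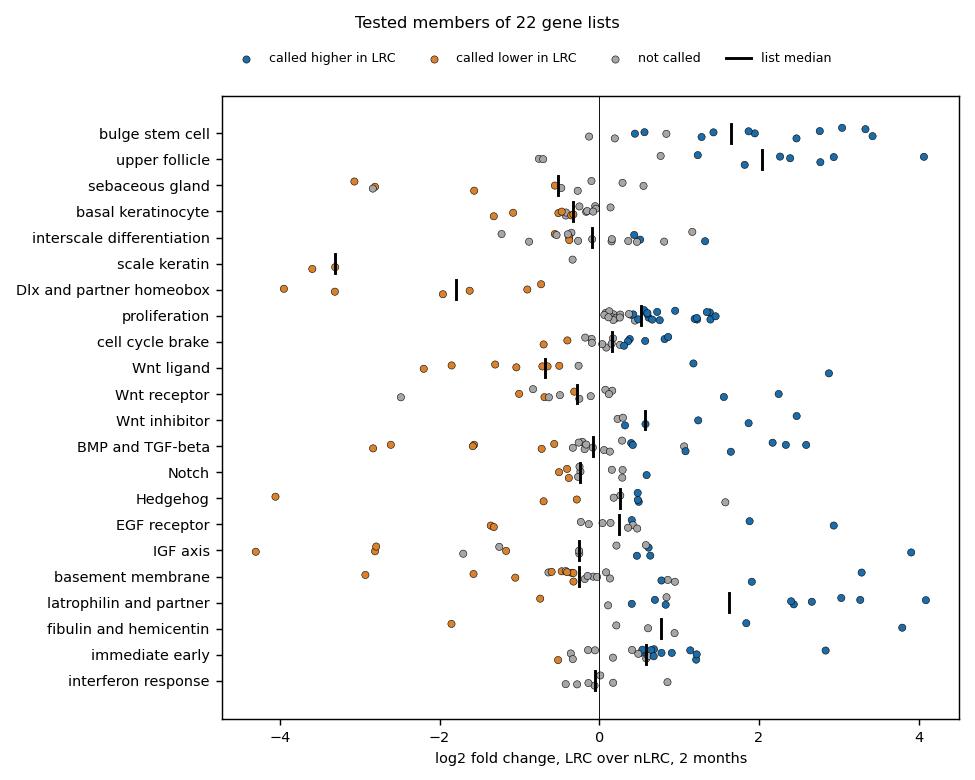
Log2 fold change (LRC over nLRC, 2 months) of each tested member of 22 gene lists; blue points were called higher in LRC, orange points lower, grey points not called, and the black bar is the list median. The bulge (median 1.65) and upper follicle (2.04) lists lie to the right, the scale keratin (-3.31) and Dlx and partner homeobox (-1.79) lists to the left, and the signalling lists spread to both sides.

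At 2 years the 3 populations were close to one another in Sox9, at 108, 98.4 and 154 CPM in the libraries labelled HFSC, 94.1, 85.04 and 109.8 CPM in LRC and 109, 83.5 and 97.7 CPM in nLRC. Cd34 was at 10.3, 13.4 and 10.03 CPM in those HFSC libraries, well below its HFSC values at 2 months, and at 3.72, 6.93 and 1.51 CPM in LRC and 5.77, 6.68 and 7.68 CPM in nLRC. The comparison of LRC with nLRC, in 6 libraries that the 2 month test did not use, gave 0 called genes of 14131 (0.0%) in edgeR with the block. An unadjusted p under 0.05 was found for 868 genes, and DESeq2 called 6. Without replicate 2 the edgeR count was 318, without replicate 1 it was 1 and without replicate 3 it was 2. Of the 12 genes named as higher at 2 months, 10 had a positive log2 fold change at 2 years, with a median of 0.46 against 3.17 at 2 months. Of the 12 named as lower, 9 were negative at 2 years, with a median of -0.21 against -2.78. The 2 month medians are inflated because these genes were chosen on them. Over all 13350 genes tested at both ages, 63.9% had the same sign.

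The difference between the ages was tested directly in 12 libraries. For 213 of 15678 genes (1.36%) the log2 fold change of LRC over nLRC differed between 2 months and 2 years. Of these, 153 had a smaller value at 2 years and 60 a larger one, and 210 had been called at 2 months. The same 2 month libraries enter both tests, so this overlap is not independent of the 2 month calls. The 3 genes with the smallest p were Dpysl3, Selenbp1 and Lrig1. At 2 years Dpysl3 stood at 70.2, 40.3 and 71.9 CPM in LRC and 68.7, 40.2 and 58.6 CPM in nLRC, a change of its log2 fold change of -3.04 (SE 0.21, edgeR adjusted p 0.00031). The nLRC libraries were thus above all 3 of their 2 month values of 11.3 to 14.2 CPM. Selenbp1 stood at 45.97, 35.3 and 61.03 CPM and 63.5, 49.9 and 99.8 CPM, a change of 2.84 (SE 0.20, edgeR adjusted p 0.00031). Lrig1 stood at 103, 52.5 and 97.7 CPM and 105, 46.6 and 75.4 CPM, a change of -2.74 (SE 0.20, edgeR adjusted p 0.00031). Of the 24 named genes, which were chosen on 2 month values that enter the difference, 21 were called for it. Arhgap24, Srgap1 and Tshz2 were not (edgeR adjusted p 0.105 to 0.166). At 2 years these 3 kept the highest log2 fold changes of the 24, from 1.13 to 1.30, with unadjusted p from 0.0141 to 0.0401. Counts of the difference fell to 28 without replicate 2 and 6 without replicate 3. Krt84 and Krt36 varied more between pairs than between groups at 2 years, with Krt84 at 409, 25.8 and 1455 CPM in LRC and 1369, 54.1 and 2498 CPM in nLRC.

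**Figure D5:**
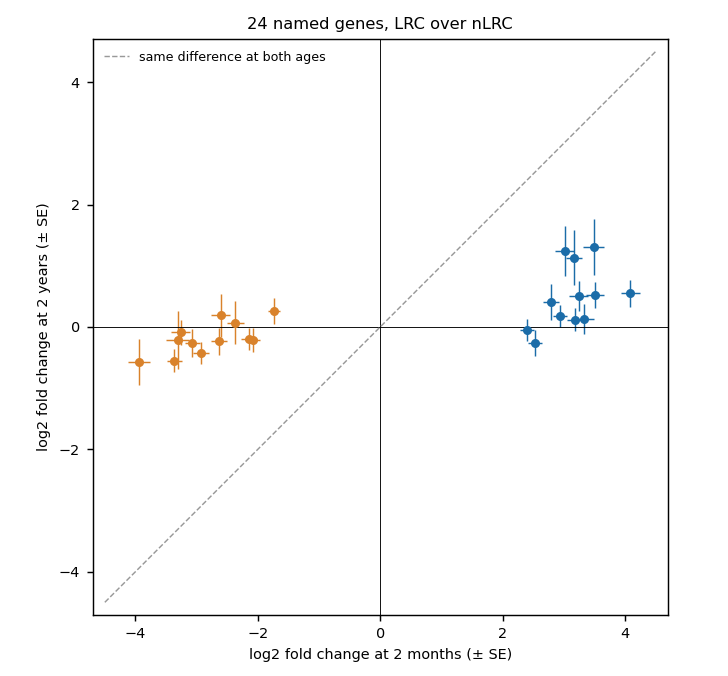
Log2 fold change of LRC over nLRC with SE for the 24 named genes at 2 months (x axis) and 2 years (y axis); blue points were higher and orange points lower in LRC at 2 months, and the dashed line marks equal values. All points lie far from 0 on the x axis, on which they were chosen, and between -0.57 and 1.30 on the y axis.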

How the data were processed

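Total RNA of sorted tail epidermal cells was sequenced in 24 samples, of which 6 entered the comparison at 2 months and 6 more that at 2 years. The deposited files give, per the file headers, whole gene read counts for 49585 genes beside RPKM and TPM values that the authors computed. Reads were set on mm10, per the submitters' processing notes; the aligner, counter, strand setting and annotation are not given in the sources used here. Gene reads include introns, so genes with overlapping or antisense neighbours may share reads. The deposited TPM values were not tested. From the authors' RPKM values and the gene counts, whole exon reads were recovered for 28784 of 28818 genes with an RPKM above 0 and tested as an alternative.

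Counts were tested with edgeR 4.0.16 in R 4.3.3 (TMM, filterByExpr, robust quasi-likelihood, Benjamini-Hochberg adjusted p under 0.05, two-sided), with the replicate number as a block; DESeq2 1.42.0 was an alternative. Same-numbered LRC and nLRC samples were taken as pairs by their number, as no label says which samples came from the same mouse. They deviated together from their group means (correlations 0.59, 0.32 and 0.56 for replicates 1, 2 and 3). What the pairs share, such as mouse, sex or file code, was not tested. Total gene reads were 10975551 to 14093720 a sample. Named genes are the 12 with the smallest p in each direction whose average log2 CPM was 2 or more, whose groups did not overlap and whose symbol was not a clone or predicted name, besides members of the gene lists. The comparison and the lists were chosen with earlier results of these data known. The fit was tested on simulated data. Coordinates are from GENCODE M21 on GRCm38. The samples at 1.5 years entered only the fit on all 24 libraries. Some genes are not reported here.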

Additional observations from a re-analysis of the deposited data

Results flagged for a closer look

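The log2 fold change of LRC over nLRC differed between 2 months and 2 years for 213 genes, by edgeR's test of the interaction of population and age. Among genes named as higher in LRC at 2 months, the change from 2 months to 2 years was -3.51 for Adgrl3, -3.18 for Atp6v1c2, -3.04 for Dpysl3, -2.97 for Pdzrn3 and -2.79 for Krt80. It was -2.74 for Lrig1, -2.71 for Nebl, -2.43 for Barx2 and -2.37 for Col8a1. Among genes named as lower in LRC, it was 3.38 for Dlx3, 3.19 for Gpnmb, 3.11 for Msx2, 2.84 for Selenbp1, 2.82 for Mt4 and 2.81 for Id2. It was 2.52 for Fras1, 2.44 for Hoxc13, 2.41 for Tnc, 2.01 for Slc39a10, 1.97 for Mettl7a3 and 1.89 for Gja1. These genes were named on their 2 month values, which enter the difference.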

How the results depend on the processing

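With the replicate block 2131 genes were higher and 1864 lower at 2 months. With no replicate block 420 were higher and 241 lower, with all 24 libraries and no block 200 and 65, and with 9 libraries 1244 and 881. DESeq2 gave 1151 lower and exon reads 1237 lower. Leaving out 1 pair gave 1372 to 1722 higher and 901 to 1548 lower, and with no replicate block leaving out LRC replicate 1, 2 or 3 gave 447, 137 or 347 higher and 204, 53 or 141 lower, and leaving out nLRC replicate 1, 2 or 3 gave 188, 201 or 159 higher and 104, 121 or 86 lower. At 2 years 0 genes were called, against 6 by DESeq2 and 1 to 318 when 1 pair was left out (318 without replicate 2). The 213 genes that differed between ages became 95 with no replicate block and 6 to 242 when 1 pair was left out. With no replicate block and without LRC replicate 1, the log2 fold changes of Atf3 (-0.187) and Fos (-0.155) were reversed, and without nLRC replicate 2 that of Fos was -0.029. The cause was not tested. The no-filter fit moved the median log2 fold change of all genes to 0.30, and 3 samples a group limit what low genes can show.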
